A study of Mus musculus with 16 samples.

Results

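The 9 genes Krt7, Krt8, Krt18, Krt19, Krt23, Epcam, Sox9, Spp1 and Cd24a were followed in RNA-seq libraries of primary mouse hepatocytes. They were chosen by symbol, as keratins and as genes used to mark bile duct cells or hepatocytes that take on features of them, and all 9 were found among the 55450 genes of the count table. The 16 libraries fell into 4 groups of 4, each with replicates lettered A to D. Hepatocytes from wild-type mice were kept overnight untreated, with 10 mM sodium itaconate, with a chemically defined mixture of fatty acids and cholesterol diluted 1:10 (lipid), or with lipid and itaconate together. All groups were cultured in DMEM with serum and insulin-transferrin-selenium. The cells were a culture taken out of the liver, so the untreated group is a cultured control and not intact tissue. Expected counts were scaled to counts per 1000000 counts of the library (CPM), and library totals ran from 22346049 to 35512004 counts, with a median of 27719372.

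Keratins build the intermediate filaments of epithelial cells from paired type II and type I chains. Adult hepatocytes make the simple epithelial pair, type II Krt8 with type I Krt18, whereas cholangiocytes, the cells that line bile ducts, also make Krt7 and Krt19. In injured liver, hepatocytes can gain biliary genes such as Sox9 and Spp1 while they lose mature functions, a state often called dedifferentiation or ductular metaplasia. Hippo-YAP, Notch and TGF-beta signalling are known to act on this change.

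The genes grouped under the label biliary-like differed widely in level here. Krt8 and Krt18, the keratin pair of adult hepatocytes, were among the most abundant transcripts, and Sox9 and Spp1 were well expressed. Krt7, Krt19, Epcam and Cd24a, which define bile duct or progenitor cells, were at or near 0. Only 4 of the 9 genes, Krt8, Krt18, Sox9 and Spp1, reached a mean of 1 CPM over the 16 libraries, the minimum for testing, and 5 did not. The members nearest to that minimum on either side were Sox9, far above it with a mean of 112 CPM, and Krt23, just under it with 0.920 CPM. Of 9 further cholangiocyte markers, 2 were tested, and Cftr and Sctr, a chloride channel and the secretin receptor of bile ducts, had no count in any library. Alb, the albumin gene of hepatocytes, ranked 1 of all genes in level per kilobase. In bulk RNA, fewer cells of a type and less RNA per cell cannot be told apart.

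Positions are on GRCm38 (mm10), with gene bodies from GENCODE M21. Krt8 lies at chr15:101996698-102004482 on the minus strand and Krt18 at chr15:102028180-102032027 on the plus strand, so they are neighbours that point away from each other, 23697 bases apart, with 0 annotated genes wholly between them. Krt7 lies on the same chromosome at chr15:101411043-101430313 (plus). The type I genes Krt19 (chr11:100140810-100148665, minus) and Krt23 (chr11:99477974-99493137, minus) share chromosome 11 with Sox9 (chr11:112782224-112787760, plus). Spp1 lies at chr5:104435118-104441050 (plus), Epcam at chr17:87635979-87651129 (plus) and Cd24a at chr10:43578284-43584265 (plus). All 9 are annotated as protein coding.

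The sequence just before the start of 4 members is shown because it sets the most abundant pair, the member that fell most with lipid and an almost silent member side by side. The sequences are RefSeq's (GRCm38.p6), written 5′ to 3′ on the gene's strand, and end before the first base of the gene in either annotation. They cover chr15:102004483-102004592 (minus, 110 bases) for Krt8, chr15:102027966-102028179 (plus, 214 bases) for Krt18, chr5:104434861-104435110 (plus, 250 bases) for Spp1 and chr17:87635729-87635978 (plus, 250 bases) for Epcam. Capitals mark any match, on either strand, to the TATA box TATAAA, the AP-1 site TGANTCA, the GC box GGGCGG, the TEAD site GGAATG or the CCAAT box.
Krt8: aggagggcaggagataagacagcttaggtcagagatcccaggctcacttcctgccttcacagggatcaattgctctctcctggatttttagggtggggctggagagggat
Krt18: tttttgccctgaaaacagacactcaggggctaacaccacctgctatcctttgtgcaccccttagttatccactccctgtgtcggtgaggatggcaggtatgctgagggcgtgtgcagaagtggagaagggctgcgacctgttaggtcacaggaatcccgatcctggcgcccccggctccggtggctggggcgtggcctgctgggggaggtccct
Spp1: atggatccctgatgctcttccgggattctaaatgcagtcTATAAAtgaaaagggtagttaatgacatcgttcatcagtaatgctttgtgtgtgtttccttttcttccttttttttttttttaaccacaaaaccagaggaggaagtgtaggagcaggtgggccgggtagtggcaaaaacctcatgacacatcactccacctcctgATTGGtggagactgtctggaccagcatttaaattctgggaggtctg
Epcam: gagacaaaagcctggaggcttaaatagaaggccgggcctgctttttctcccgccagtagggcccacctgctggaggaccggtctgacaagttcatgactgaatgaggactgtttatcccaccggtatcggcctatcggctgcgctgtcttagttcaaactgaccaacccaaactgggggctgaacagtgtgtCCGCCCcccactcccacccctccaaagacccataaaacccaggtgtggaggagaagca
The Krt8 and Krt18 stretches held none of the 5 motifs, but they were shorter than the other stretches. They stop at the GENCODE start, and the bases from there to the RefSeq start were not searched. In windows of 110 and 214 bases, 14.9% and 30.3% of promoters hold CCAAT. Spp1 held TATAAA 211 bases before the RefSeq start, a sequence that 12.4% of 32851 promoters hold in the same window. It also held CCAAT on the opposite strand, 46 bases before that start and held by 33.8%. Epcam held GGGCGG on the opposite strand, held by 32.7%. GC content was 53.6% for Krt8, 60.7% for Krt18, 43.6% for Spp1 and 56.4% for Epcam. A match describes letters in this window and no binding was measured.

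**Figure D1:**
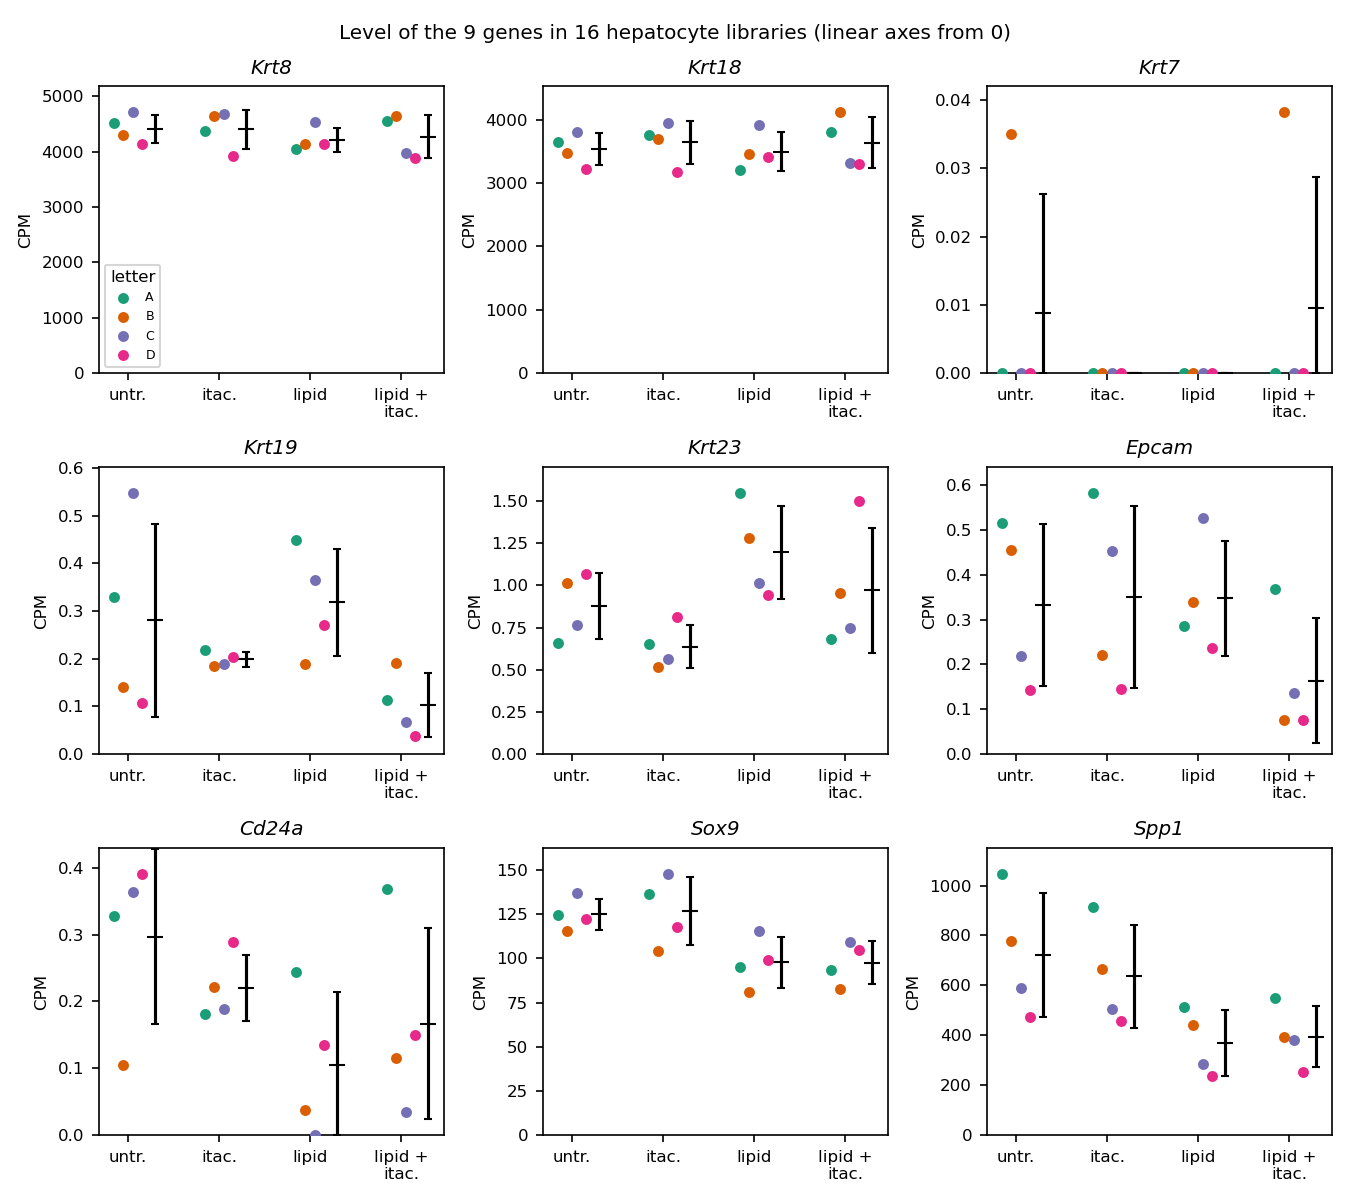
Level of each of the 9 genes in CPM (vertical axes, linear from 0, each panel with its own scale) in the 4 groups of 4 libraries. Points are libraries coloured by replicate letter, and black marks are the group mean with 1 SD, where lower bars stop at 0. Krt8 and Krt18 lie highest, with means of 4326 and 3579 CPM, Sox9 and Spp1 sit lower in both lipid groups, and Krt7 has 14 libraries at 0.

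The keratin pair of hepatocytes was abundant and varied little between libraries. Krt8 had a mean of 4326 CPM over the 16 libraries (range 3892 to 4714) and Krt18 one of 3579 CPM (3168 to 4121). Per kilobase of exon, Krt18 was the higher, with 2491 CPM per kilobase and rank 24 of all genes, against 2209 and rank 28 for Krt8. Apoa1 and Ttr, secreted apolipoprotein and transthyretin genes typical of hepatocytes, ranked 34 and 35 on the same scale. Together Krt8 and Krt18 took 0.689% to 0.884% of each library's counts.

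Krt8 stood at 4523, 4293, 4714 and 4137 CPM in untreated replicates A to D. With itaconate it stood at 4371, 4651, 4677 and 3913 CPM. With lipid the values were 4047, 4146, 4534 and 4131 CPM, and with lipid and itaconate 4552, 4645, 3982 and 3892 CPM. The 4 groups overlapped throughout, and no group stood apart. Krt18, its obligate partner, stood at 3656, 3471, 3805 and 3228 CPM untreated and at 3762, 3688, 3956 and 3168 CPM with itaconate. Its lipid values were 3200, 3455, 3921 and 3405 CPM, and its values with both were 3809, 4121, 3320 and 3294 CPM. Here too the groups overlapped.

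Neither partner passed the test in any comparison (edgeR quasi-likelihood test with replicate letter, adjusted over 11678 genes). Lipid against untreated gave a log2 fold change of -0.07 for Krt8 (95% interval -0.195 to 0.062, adjusted p = 0.383) and of -0.02 for Krt18 (-0.17 to 0.136, adjusted p = 0.865). Itaconate against untreated gave -0.01 for Krt8 (-0.135 to 0.122, adjusted p = 0.964) and 0.04 for Krt18 (-0.113 to 0.193, adjusted p = 0.786). Changes within these intervals could not be told from 0 at this replication. In the presence of the other agent the log2 changes lay between -0.04 and 0.06, with adjusted p of 0.581 or more. At the high levels of these genes, counting error was small beside the variation left after treatment and letter, a residual SD of 0.0888 for Krt8 and 0.115 for Krt18 on the log2 scale.

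Only when itaconate was added to lipid did the partners differ in the same direction within every letter. Krt8 changed by 0.17, 0.16, -0.19 and -0.09 in letters A to D and Krt18 by 0.25, 0.25, -0.24 and -0.05, all on the log2 scale. Both were higher in A and B and both were lower in C and D, and the average was near 0. The signs of the partners differed in letters A and C with itaconate against untreated, and in C and D with lipid against untreated. With lipid + itaconate against itaconate they differed in B and D. Treatment accounted for 9.3% of the variance of Krt8 in log2 CPM and 4.43% of that of Krt18, and the letter for 41.4% and 40.6%. The rest, 49.3% and 54.9%, was residual. With 4 groups and 4 letters over 16 libraries, such shares lie well above 0 without any effect, and the letter's share was not tested.

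The ratio of Krt8 to Krt18 in counts per base tells whether the transcripts of the pair kept their proportion, and no protein was measured. It averaged 0.916 ± 0.0162 untreated, 0.888 ± 0.0337 with itaconate, 0.887 ± 0.0328 with lipid and 0.863 ± 0.0244 with both (SD, n = 4 each). Untreated libraries ran from 0.908 to 0.941 and those with both agents from 0.827 to 0.880. No comparison of 2 groups differing by 1 agent passed a two-sided exact permutation test of the log2 ratio: p = 0.2 for itaconate and 0.2 for lipid against untreated, 0.314 for itaconate added to lipid and 0.257 for lipid added to itaconate, all 0.314 after adjustment over these 4. The smallest p that 4 against 4 libraries allow is 0.0286. Without lipid replicate A, or without itaconate replicate B, the exact permutation p of that agent against untreated was 0.0286 before adjustment, with log2 differences of -0.070 and -0.066. Each was 1 of 8 single-library omissions in its comparison and removed the library of its group with the highest ratio. With the libraries left, 0.0286 is also the smallest p possible.

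**Figure D2:**
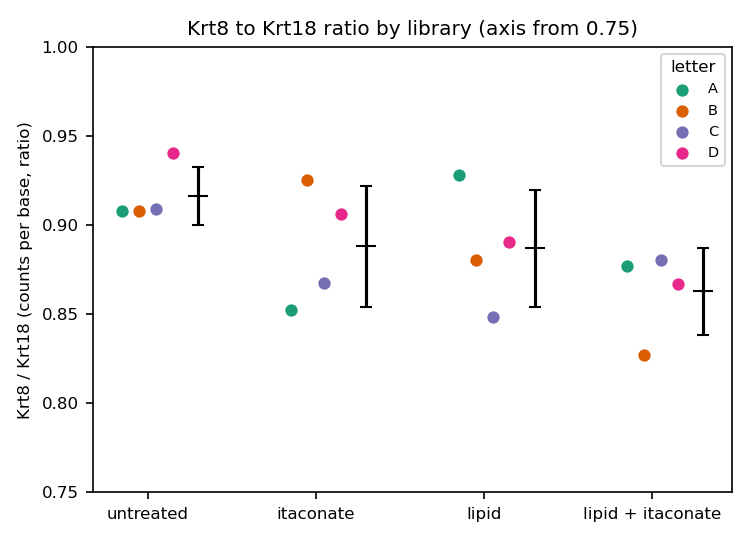
Ratio of Krt8 to Krt18 in counts per base of exon (vertical axis from 0.75, no unit) by group. Points are libraries coloured by letter and black marks the mean with 1 SD of 4 libraries. The untreated mean is 0.916 and the mean with lipid and itaconate 0.863, with overlapping ranges between groups that differ by 1 agent.

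The remaining keratins among the 9 were barely detected. Krt7, the type II chain of bile ducts, had 2 counts over all 16 libraries, 1 in untreated replicate B and 1 in lipid + itaconate replicate B, and 14 libraries at 0. A count of 0 over the 4 itaconate libraries allows up to 0.0259 CPM, taken as 3 counts. Krt19, the type I chain of bile ducts and progenitors, had 97 counts. They were spread as 7, 4, 15 and 3 untreated, 6, 5, 5 and 7 with itaconate, 11, 5, 9 and 8 with lipid, and 4, 5, 2 and 1 with both. The lipid + itaconate libraries held the fewest, 12 in all against 33 with lipid alone. Krt23, a type I keratin seen in stressed liver, was the highest of the low members with 405 counts. Its counts were 14, 29, 21 and 30 untreated, 18, 14, 15 and 28 with itaconate, 38, 34, 25 and 28 with lipid, and 24, 25, 22 and 40 with both.

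Epcam, an adhesion molecule of biliary and progenitor cells, and Cd24a, a surface glycoprotein of the same cells, were as scarce. Epcam had 130 counts: 11, 13, 6 and 4 untreated, 16, 6, 12 and 5 with itaconate, 7, 9, 13 and 7 with lipid, and 13, 2, 4 and 2 with both. Cd24a had 89 counts: 7, 3, 10 and 11 untreated, 5, 6, 5 and 10 with itaconate, 6, 1, 0 and 4 with lipid, and 13, 3, 1 and 4 with both. The groups overlapped for both genes.

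In a fit without the minimum level, 0 of these 5 genes passed in any comparison. At an unadjusted p under 0.05, 2 genes stood out when itaconate was added to lipid, Krt19 (log2 fold change -1.585, edgeR adjusted p = 0.298) and Epcam (adjusted p = 0.455). Cd24a did so with lipid against untreated (edgeR adjusted p = 0.103). The libraries' counts of these genes, mostly under 20, leave wide intervals: that for Krt19 ran from -2.94 to -0.232 on the log2 scale.

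Spp1 and Sox9 were lower with lipid, with or without itaconate. Spp1 encodes osteopontin, a secreted phosphoprotein of bile duct cells, injured hepatocytes and macrophages. Its level fell by 49.0% with lipid alone and by 37.9% when lipid was added to itaconate. Sox9, the transcription factor of bile ducts and of periportal hepatocytes, fell by 22.2% and 22.8%. In each of these comparisons 2 of the 4 tested genes passed, both lower, where 47.7% of all 11678 genes tested passed with lipid against untreated (23.4% lower) and 47.2% with lipid + itaconate against itaconate (24.4% lower). A share of 2 in 4 is close to that of all genes.

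Untreated replicates A to D held 1046, 777, 588 and 475 CPM of Spp1, and itaconate libraries 914, 667, 504 and 457. Lipid libraries held 515, 442, 284 and 236 CPM, and those with both agents 550, 394, 379 and 251. Letter A was highest and letter D lowest in all 4 groups, so the groups overlapped although each lipid library was below its counterpart of the same letter. The group means were 721 ± 250, 636 ± 206, 369 ± 131 and 394 ± 122 CPM in that order (SD, n = 4). With lipid against untreated the log2 fold change was -0.97 (SE 0.0716, 95% interval -1.12 to -0.818, edgeR adjusted p = 7.16e-08), and within letters it was -1.02, -0.81, -1.05 and -1.01. With lipid + itaconate against itaconate it was -0.69 (SE 0.0712, -0.84 to -0.537, adjusted p = 2.71e-06), and within letters -0.73, -0.76, -0.41 and -0.86. Without the letter in the model this second change kept its size but not its call (log2 fold change -0.69, adjusted p = 0.0786).

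Sox9 measured 125, 115, 137 and 123 CPM in untreated replicates A to D and 137, 104, 148 and 118 CPM with itaconate. It measured 95.2, 81.0, 116 and 99.2 CPM with lipid and 93.4, 82.6, 109 and 105 CPM with both. The untreated and lipid groups touched at a single pair of libraries, untreated B and lipid C, and letter B was the lowest in every group. Lipid against untreated gave a log2 fold change of -0.36 (SE 0.0558, -0.481 to -0.244, adjusted p = 8.64e-05), lower in 4 of 4 letters. Lipid + itaconate against itaconate gave -0.37 (SE 0.0556, -0.491 to -0.255, adjusted p = 7.65e-05), again lower in 4 of 4. These are modest changes beside that of Spp1, which had the 173rd lowest log2 fold change of 11678 genes with lipid, where Sox9 had the 1229th.

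**Figure D3:**
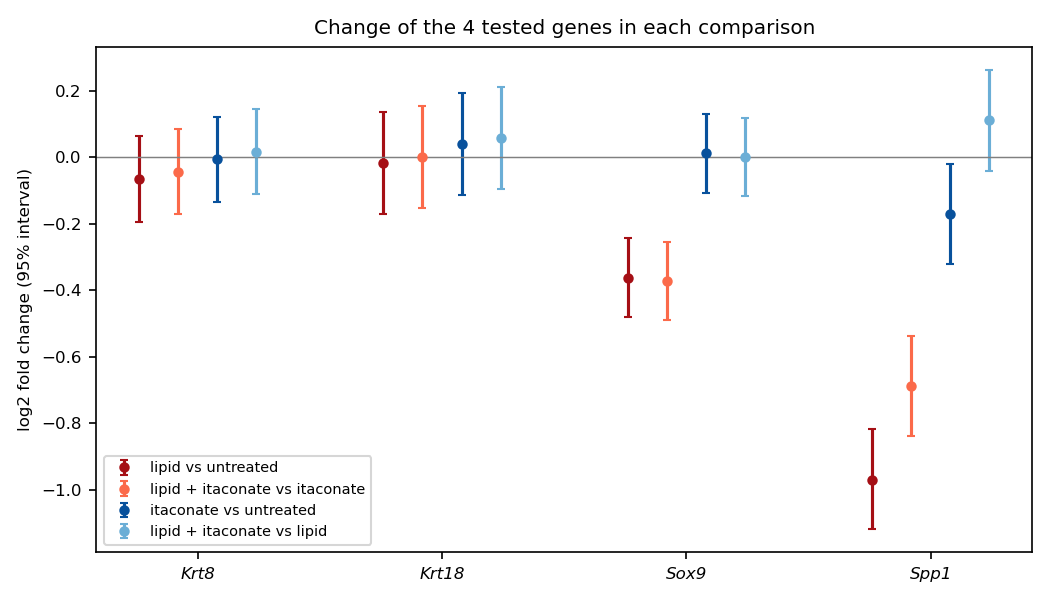
Log2 fold change (vertical axis) of Krt8, Krt18, Sox9 and Spp1 in 4 comparisons, with bars for the 95% interval of the edgeR fit. Both lipid comparisons (red) lie below 0 for Sox9, at -0.36 and -0.37, and for Spp1, at -0.97 and -0.69, and all intervals of Krt8 and Krt18 include 0.

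Itaconate moved none of the tested members past the threshold. With itaconate against untreated 0 of 4 passed, where 5.14% of all genes did, and 1 of the 4 had an unadjusted p under 0.05. That gene was Spp1, with a log2 fold change of -0.17 (SE 0.0707, -0.322 to -0.0212, edgeR adjusted p = 0.174), lower in 4 of 4 letters (-0.19, -0.22, -0.22 and -0.06). Its call depended on the fit: the adjusted p was 0.00423 with only the itaconate and untreated libraries, 0.035 with no minimum level and 0.0337 without lipid + itaconate replicate C. In those fits 16%, 4.34% and 8.97% of all genes were called. Sox9 gave 0.01 (-0.107 to 0.129, adjusted p = 0.93).

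With itaconate added to lipid 0 of 4 passed, where 2.64% of all genes did, and 0 had an unadjusted p under 0.05. Spp1 gave 0.11 (-0.0408 to 0.262, adjusted p = 0.45) and Sox9 0.0004 (-0.118 to 0.119, adjusted p = 0.998). The question whether the lipid effect differed with itaconate present was tested as an interaction. For Spp1 the log2 difference was 0.28 (0.0687 to 0.495, edgeR adjusted p = 0.451), so the smaller fall beside itaconate was not called, where 0.0171% of all genes were. Its p was the 332nd smallest of 11678, and with no minimum level it was called (adjusted p = 0.0181), as were 0.918% of genes. For Krt8, Krt18 and Sox9 it was 0.02, 0.02 and -0.01, with adjusted p of 0.964 or more.

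**Figure D4:**
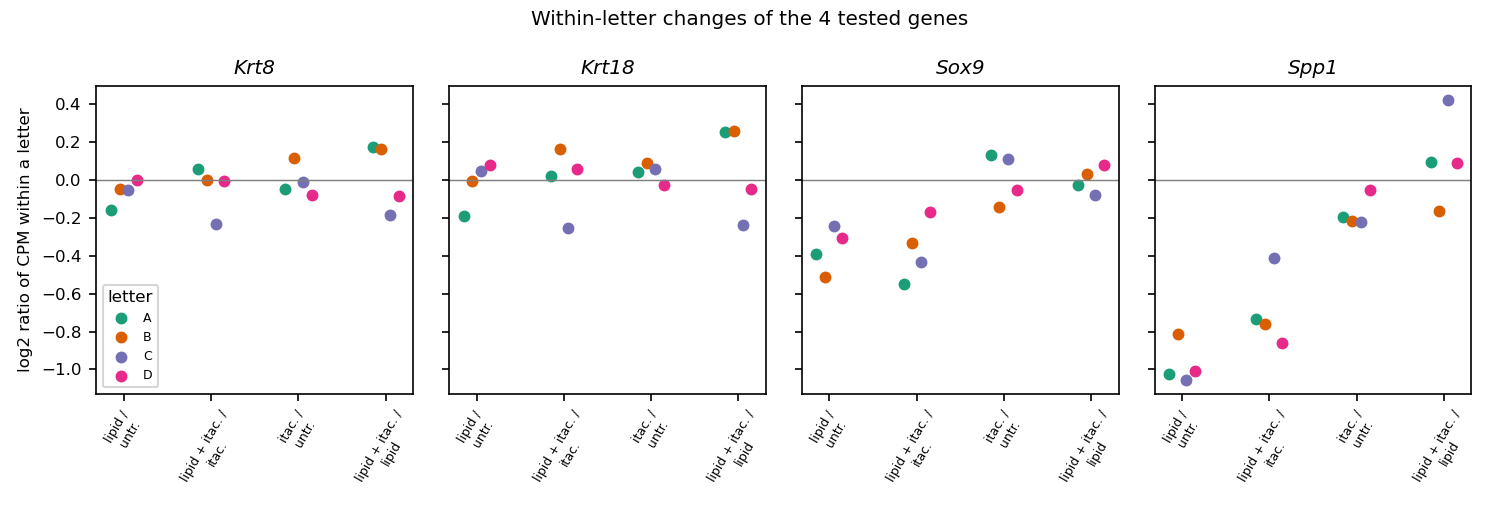
Log2 ratio of CPM between libraries of the same letter (vertical axis) for each tested gene in 4 comparisons, with a point for each letter. All 4 letters lie below 0 for Sox9 and Spp1 in both lipid comparisons, and letters spread around 0 for Krt8 and Krt18 when itaconate was added to lipid.

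Treatment accounted for 56.6% of the variance of Sox9 in log2 CPM over the 16 libraries and 50.3% of that of Spp1, the letter for 36.7% and 47.5%, and 6.75% and 2.13% remained. After the letter was removed, the gene whose log2 CPM followed Spp1 most closely over the 16 libraries was St6gal1, a sialyltransferase (Pearson r = 0.99, lipid log2 fold change -1.01), followed by Litaf (r = 0.986). The closest to Sox9 were Atxn2l (r = 0.972) and Cpsf7 (r = 0.969), both RNA-binding factors. Krt18 was closest to Hmox1, the stress-induced haem oxygenase (r = 0.935), and to Lsm14a (r = 0.926), and Krt8 to Serpina3m (r = 0.922) and Mrps18b (r = 0.9). These are descriptions over 16 libraries that share treatment groups, picked from 9360 genes.

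Other genes of bile ducts could seldom be tested, and the tested progenitor genes were lower with lipid. Of the 2 tested cholangiocyte markers, 0 were higher and 1 lower with lipid against untreated: Pkhd1, a ciliary protein of ducts (log2 fold change -0.89, adjusted p = 0.00163), with a mean of 1.59 CPM. Bicc1, an RNA-binding protein, gave 0.20 (adjusted p = 0.409). With lipid + itaconate against itaconate Pkhd1 gave -0.84 (adjusted p = 0.00262). The 9 markers summed to 4.96 to 5.22 CPM untreated, 3.21 to 5.50 with itaconate, 3.13 to 4.05 with lipid and 3.29 to 4.07 with both. All 3 tested genes of the 12 progenitor and fetal liver genes were lower with lipid: Cd44, a hyaluronan receptor (-0.88), Tnfrsf12a, the TWEAK receptor (-0.25), and Itga6, an integrin chain (-0.18). Cd44 was also lower with itaconate against untreated (log2 fold change -0.84, adjusted p = 0.00487). These 3 of 3 and the 1 of 2 cholangiocyte markers stand beside 47.7% of all genes called with lipid (23.4% lower) and a median log2 fold change of 0.00883 over all genes. Itga6 lost its call without the letter in the model (adjusted p = 0.166) and without untreated replicate D (adjusted p = 0.0796).

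Signalling lists were mixed, and the share of each called with lipid was close to the 47.7% of all genes. Of 7 tested Notch pathway genes, 0 were higher and 3 lower with lipid: the ligand Jag1 (-0.48), the nuclear effector Rbpj (-0.26) and the coactivator Maml1 (-0.16), whereas the target Hes1 gave 0.03 with an adjusted p of 0.75. Of 11 tested Hippo-YAP genes, 1 was higher, the secreted matrix protein Ccn1 (0.68), and 4 were lower, among them Amotl2 (-0.62), Lats2 (-0.24) and the partner of YAP Tead1 (-0.36), with a list median of -0.236. Of 11 tested TGF-beta genes, 3 were higher, including the ligand Tgfb2 (0.66) and the receptor Tgfbr2 (0.38), and 2 were lower, Smad3 (-0.48) and Id1 (-0.31, adjusted p = 0.0536 without the letter). Ankrd1, a YAP target with a mean of 1.49 CPM, was lower with itaconate both on its own (-0.81, adjusted p = 0.0439) and added to lipid (-1.16, adjusted p = 0.0201). These calls were lost in 9 and 4 of 16 fits that left out a single library. Tgfb2 (-0.77, adjusted p = 0.00308) and Snai2 (-0.67, adjusted p = 0.00584) were lower when itaconate was added to lipid. All 6 calls of list genes named for itaconate alone, and all 5 for itaconate added to lipid, were lost without the letter in the model, where the adjusted p was 0.144 to 0.586 and 0.168 to 0.388. The 5 for itaconate added to lipid were also lost when only the compared libraries were fitted (edgeR adjusted p = 0.122 to 0.226). In that fit 13 of 11687 genes were called.

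Partners of the keratin filament moved in both directions with lipid. Of 13 tested genes for linkers, desmosomes and other filaments, 2 were higher and 7 lower with lipid, beside 47.7% of all genes called and 23.4% lower, with a median of -0.178. Dsg2, a desmosomal cadherin that anchors keratin at cell contacts, was higher (0.40, adjusted p = 7.67e-06). Pkp4 (-0.25) and Pkp2 (-0.20), plaque proteins of cell junctions, and Vim, the mesenchymal filament vimentin (-0.41), were lower. Vim was also lower (-0.40, adjusted p = 0.0217), and the linker periplakin Ppl higher (0.51, adjusted p = 0.0051), with itaconate against untreated. Among 14 further keratins, 2 were tested, and Krt5, a basal keratin with a mean of 1.36 CPM, was higher with lipid (0.70, adjusted p = 0.0442) and with lipid + itaconate against itaconate (1.31, adjusted p = 0.00183). Without the letter in the model, the calls with lipid against untreated were lost for Krt5 (adjusted p = 0.131), Vim (0.148) and Pkp4 (0.0861).

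**Figure D5:**
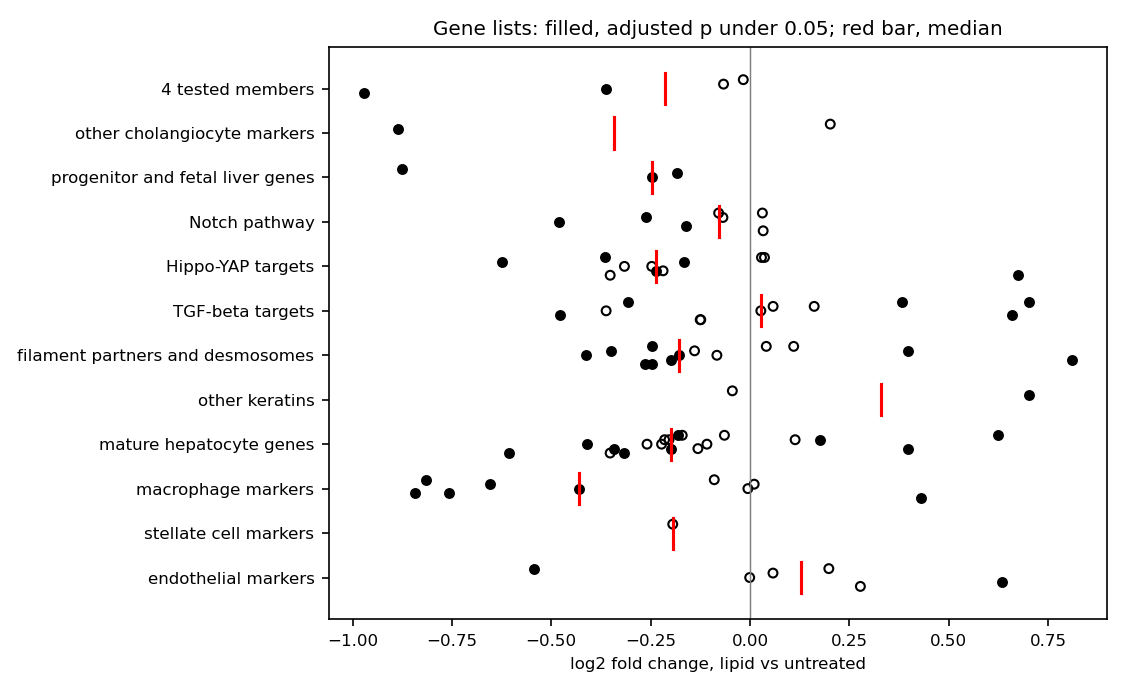
Log2 fold change with lipid against untreated (horizontal axis) for every tested gene of each list, filled where the adjusted p is under 0.05, with a red bar at the list median. The cholangiocyte and progenitor lists have medians of -0.342 (2 genes) and -0.247, the filament partners -0.178 and the mature hepatocyte genes -0.199.

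Mature hepatocyte genes were called about as often with lipid as all genes. Of 19 tested hepatocyte genes, 3 were higher and 6 lower with lipid (median -0.199), against 47.7% of all genes called, with Cebpa, a hepatocyte transcription factor, at 0.40 and Tdo2, the tryptophan dioxygenase, at -0.41. Of 9 tested macrophage markers, 1 was higher and 5 lower with lipid, and 1 higher and 8 lower with lipid + itaconate against itaconate, the comparisons in which Spp1 fell. Over all genes, 23.4% and 24.4% were lower in these comparisons. Adgre1, which encodes F4/80, averaged 2.19 CPM untreated and 1.20 CPM with lipid, and Marco, a scavenger receptor, 10.2 and 6.04 CPM. Cd68, which was higher (log2 fold change 0.43, adjusted p = 0.0707 without the letter), made up most of the summed level, which was 177.1 to 288.9 CPM untreated, 156.7 to 242.4 with itaconate, 231.4 to 328.4 with lipid and 210.4 to 317.7 with both. Timd4, a marker of resident Kupffer cells, was at 0 in 3 libraries. The part of macrophages and of bile duct cells in the levels of Spp1 and Sox9 was not tested.

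Reads of neighbouring genes were few beside those of the abundant members. The opposite-strand transcript Gm36026, which overlaps the start of Krt8, had 5 to 28 counts in a library, and Gm42793, on the strand of Spp1, had 5.02 to 46.6. The pseudogene Krt8-ps had 139.32 to 226.12 counts, so reads shared between it and Krt8 are uncertain, though small beside Krt8.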

How the data were processed

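RNA from the 16 hepatocyte cultures was sequenced after mRNA capture with a stranded kit. Per the labels and the study's methods, the authors trimmed reads with Cutadapt 1.18, aligned them to mm10 with STAR 2.7.0f and deposited RSEM 1.3.1 expected counts per gene (GENCODE M21), of which 5.41% were not whole. These expected counts were rounded and normalised by TMM, and the 11678 genes whose mean reached 1 CPM were fitted with edgeR 4.0.16 (R 4.3.3), with treatment and replicate letter as terms over all 16 libraries. P-values of the quasi-likelihood test were adjusted by Benjamini-Hochberg, with a threshold of 0.05. The study removed a batch by a linear model, and the letter was the batch-like label. Deviations from group means correlated at 0.138 to 0.469 in all 24 same-letter pairs and at -0.385 to 0.176 in 72 others, so letters paired the libraries. Whether letters were separate animals is not given in the sources used here, so p-values measure the spread between these samples, which may be technical. CPM values use TMM-scaled library sizes, and 95% intervals come from the fit. Alternatives were no letter, RLE scaling, other filters, only the compared libraries, DESeq2 1.42.0, limma 3.58.1 and leaving out each library.

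The members and the lists were chosen with earlier results of these data known, and 1 cholangiocyte marker is not reported here. Named genes were all members and, of each list and comparison, up to 4 genes with the smallest adjusted p under 0.05. Likeness used genes of at least 5 CPM, log2 CPM with a prior count of 0.5 and 2 genes per member. Hes1, Bicc1, Krt17 and the marker genes given by level only were chosen after their values were seen. The RefSeq promoter table held 6 of the 9 members. Intervals and limits from counts cover counting error only. Mitochondrial genes took 3.27% to 6.01% of counts.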

Additional observations from a re-analysis of the deposited data

How the results depend on the processing

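The falls of Sox9 and Spp1 with lipid kept their direction in every alternative run, and their calls in all but one. Without the replicate block, Spp1 lost its call with lipid + itaconate against itaconate, so 1 of 4 members passed there instead of 2, while all genes called there went from 5511 to 4014, and from 5573 to 4167 with lipid, from 600 to 22 with itaconate, from 308 to 9 with itaconate added to lipid and from 2 to 0 for the interaction. With itaconate against untreated, 1 member (Spp1) passed with no filter and when just the 2 compared groups were fitted. When single libraries were left out, 0 to 1 passed. In these fits all genes called went from 600 (5.14%) to 1091 (4.34%), to 1863 (16%) and, without lipid + itaconate replicate C, to 1048 (8.97%). With no filter, 1 member (Spp1, adjusted p = 0.0181) also passed for the interaction. The cause was not tested.

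Signs turned for log2 changes near 0 that passed in no fit: Sox9 with itaconate added to lipid was -0.002386 without the block, and Krt18 with lipid + itaconate against itaconate was 0.00269 with the filterByExpr filter, 0.008806 with no filter and 0.001532 with the compared groups alone. When single libraries were left out, the log2 change for the interaction ran from -0.04804 to 0.1116 for Krt18, -0.01594 to 0.09732 for Krt8 and -0.04738 to 0.0403 for Sox9. The change with lipid added to itaconate ran from -0.06362 to 0.08992 for Krt18 and -0.08131 to 0.02671 for Krt8. The change with itaconate added to lipid ran from -0.008008 to 0.1465 for Krt18, -0.02177 to 0.08635 for Krt8 and -0.0402 to 0.03116 for Sox9. The change with lipid against untreated ran from -0.06633 to 0.04182 for Krt18. The change with itaconate against untreated ran from -0.04558 to 0.01719 for Krt8 and -0.03972 to 0.05316 for Sox9. The difference from untreated in the log2 ratio of Krt8 to Krt18 ran from -0.06989 to -0.02678 for lipid and from -0.06604 to -0.02658 for itaconate. The largest differences were without lipid replicate A and without itaconate replicate B (exact permutation p = 0.0286 each, unadjusted, the smallest possible there). With the replicate block this difference was -0.04775 for lipid (exact permutation p = 0.25) and -0.04592 for itaconate (p = 0.25), and this test cannot go below 0.125. Of the 71 calls named for list genes, 29 were lost without the block and 9 with only the compared libraries. When at least 1 single library was left out, 18 were lost. The latter were Ankrd1, Cd68, Lyz2 and Vim with itaconate against untreated, Ankrd1, C1qb and Tdo2 with itaconate added to lipid, Cd44, Itga6, Reln, Snai1 and Stab2 with lipid added to itaconate, and Id1, Itga6, Krt5, Lyve1, Maml1 and Stab2 with lipid against untreated. Depth limits Krt7, Krt19, Krt23, Epcam and Cd24a.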

Other observations

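Of the 9 stellate cell markers, 1 was tested, Reln, which was lower with lipid + itaconate against itaconate (log2 fold change -0.24, edgeR adjusted p = 0.0355), a call lost without the replicate block (adjusted p = 0.0742) and in 8 of 16 fits that left out a single library. Of the 8 endothelial markers, 6 were tested, and with lipid against untreated Lyve1, a hyaluronan receptor of sinusoidal endothelium, was higher (0.63, adjusted p = 0.0366) and Stab2, a scavenger receptor of the same cells, lower (-0.54, adjusted p = 0.033). Their means were 1.05 and 2.35 CPM, and both calls were lost without the replicate block (adjusted p = 0.183 and 0.0731). Lyve1 stood just above the minimum of 1 CPM and was highest with lipid, so that group helped it to be tested. Its call carries little weight. It was also lost with no filter (edgeR adjusted p = 0.0719), with DESeq2 (0.0687) and with limma (0.0577). When single libraries were left out, Lyve1 was tested in 15 of 16 fits and lost its call in 6 of them.

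Lyz2, the lysozyme gene of myeloid cells, was higher with itaconate against untreated (log2 fold change 0.50, adjusted p = 0.0162) and Cd68 lower (-0.24, adjusted p = 0.0127). C1qb, a complement chain of macrophages, was lower when itaconate was added to lipid (-0.66, adjusted p = 0.0279). Of 9 tested macrophage markers, no others were called in these comparisons. Without the replicate block these calls were lost (edgeR adjusted p = 0.276 for Lyz2, 0.586 for Cd68 and 0.336 for C1qb). They were also lost in 5, 1 and 5 of 16 fits that left out a single library. The call of C1qb was lost too when only the compared libraries were fitted (edgeR adjusted p = 0.226).

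Krt17, an epithelial keratin under the minimum for testing, was chosen after its values were seen. It averaged 1.13 ± 0.420 CPM untreated, 0.805 ± 0.233 with itaconate, 0.885 ± 0.2655 with lipid and 0.576 ± 0.293 with both (SD, n = 4 each). Libraries ran from 0.797 to 1.74 CPM untreated and from 0.312 to 0.901 CPM with both, so these groups overlapped. Their difference was not tested.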
